A study of Homo sapiens with 4 samples.

Results

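The genes that carry a cell through G2 and mitosis were followed on 4 Agilent single-colour expression arrays of Nalm-6 cells, a human pre-B leukaemia line. The list held 36 genes, named for their known role. No measured value enters the rule, but the list was chosen with earlier results of these data known. By the RefSeq accession of the probe, 35 of them were measured, of 18203 genes named on the array, through 42 of its 41000 probes. No probe was matched to UBE2C. Of the 42 probes, 41 were well above background on all 4 arrays, and the other, 1 of 3 for ECT2, was above background on none and is left out of every count below. The 41 probes covered all 35 genes, 29 of them through a single probe.

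The arrays held RNA of 1 culture each of wild-type cells (WT), Arp5 KO cells, Arp8 KO cells and cells labelled Arp8 overexpression. Arp5 and Arp8 are actin-related proteins of the INO80 chromatin remodeling complex, encoded by ACTR5 and ACTR8. Both knockouts are derived cell lines. In Arp5 KO cells both alleles were disrupted with targeting vectors, and Arp8 KO cells were made earlier in a similar way. The paper that reported these data states that Arp5 KO cells grew slightly more slowly than wild-type cells. It also states that conditional loss of Arp8 was lethal in earlier work. Whether the Arp8 KO culture here was a conditional knockout was not given. Whether each line is 1 clone, and how the cells labelled Arp8 overexpression were made, was not given in the sources used here. The treatment protocol gives heme, an inducer of oxidative stress, at 20 uM for 12 hours in all 4 cultures, so no group without the agent is defined by it. The labels conflict on this for the knockouts: the treatment field lists both without heme, and the source name does so for Arp5 KO but not for Arp8 KO. Genotype and treatment can therefore not be told apart where a knockout is compared with WT or with the array labelled Arp8 OE, and by the source name not between the knockouts either. With 1 array per group there was no replicate and no test, and no difference below carries a p-value.

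In G2 and mitosis, cyclin B and CDK1 drive entry, Aurora and Polo kinases build the spindle, and the spindle checkpoint holds back the anaphase-promoting complex until every kinetochore is attached. The genes for these proteins are transcribed in a wave late in the cycle, so that their mRNA is abundant in dividing cells and low in resting ones. Many of their promoters hold a cell cycle homology region (CHR), the letters TTTGAA or TTCGAA, near the start of transcription, with CCAAT boxes upstream. The CHR is bound by the MuvB core, which acts as a repressor within the DREAM complex in resting cells and as an activator together with MYBL2 and FOXM1 in dividing cells. CCAAT boxes are bound by the factor NF-Y.

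The promoters of 5 genes are printed to show this arrangement in genes that stood at different places in the results. HMMR was among the genes with the largest differences between Arp8 KO and WT, KIF11 had probes that disagreed, CCNB2 and PLK1 stood near the middle and the small end, and MKI67 was the gene with the smallest difference. Each line holds the 100 bases before the RefSeq start of transcription in GRCh38.p14, 5' to 3' on the strand of the gene. Capitals mark a CHR or a CCAAT box on either strand (TTCAAA is the reverse complement of TTTGAA and ATTGG that of CCAAT, and TTCGAA reads the same on both strands). The windows are chr5:163460532-163460631 (+ strand) for HMMR, chr10:92593030-92593129 (+) for KIF11, chr15:59105046-59105145 (+) for CCNB2, chr16:23678789-23678888 (+) for PLK1 and chr10:128126424-128126523 (- strand) for MKI67.
HMMR: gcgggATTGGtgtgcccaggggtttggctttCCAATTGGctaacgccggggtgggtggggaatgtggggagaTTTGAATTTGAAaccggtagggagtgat
KIF11: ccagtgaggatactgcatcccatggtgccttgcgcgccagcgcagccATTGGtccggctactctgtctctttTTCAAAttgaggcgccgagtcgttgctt
CCNB2: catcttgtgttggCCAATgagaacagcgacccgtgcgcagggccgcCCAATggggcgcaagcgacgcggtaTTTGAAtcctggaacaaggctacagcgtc
PLK1: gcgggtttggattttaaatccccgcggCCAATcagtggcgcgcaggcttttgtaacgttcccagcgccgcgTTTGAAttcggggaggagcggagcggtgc
MKI67: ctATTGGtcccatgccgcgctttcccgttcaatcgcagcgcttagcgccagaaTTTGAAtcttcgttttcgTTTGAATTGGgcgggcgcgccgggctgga

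In HMMR, a pair of CHR elements lay side by side at -28 to -17, and a pair of CCAAT boxes on opposite strands overlapped at -69 to -62. PLK1 and CCNB2 each had a single CHR at -29 to -24, and KIF11 had it at -28 to -23 on the opposite strand. The MKI67 promoter held a CHR at -47 to -42 and another at -29 to -24, the latter overlapping a CCAAT box on the opposite strand at -24 to -20. Over all 43 promoters that the RefSeq table gives for 31 of the 36 genes, from 250 bases before the start to 50 after it, 26 (60.5%) held a CHR, against 16.4% of the 35116 promoters in the table. CCAAT boxes stood in 32 (74.4%), against 34.6% of all promoters, and both motifs in 22 (51.2%), against 6.38%. In the last 60 bases before the start the CHR was found in 14 member promoters (32.6%), against 3.17% of all. These are matches of letters, not binding sites. AURKA, TTK, BIRC5, TPX2 and UBE2C had no entry in the table.

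Another group of cell cycle genes, those of G1/S and DNA replication, had a CCAAT box in 30 of 52 promoters (57.7%) but a CHR in 2 (3.85%). In the promoters of subunits and regulators of the anaphase-promoting complex the CHR stood in 5 of 30 (16.7%). Members with and without the letters overlapped in their differences: 23 genes with a CHR in at least 1 promoter had a median difference of -0.43 between Arp8 KO and WT, from -1.12 to -0.04, and 8 genes without one had a median of -0.41, from -0.68 to -0.32. CENPE and KIF2C had neither motif in this window. Their differences were -0.68 and -0.32.

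**Figure D1:**
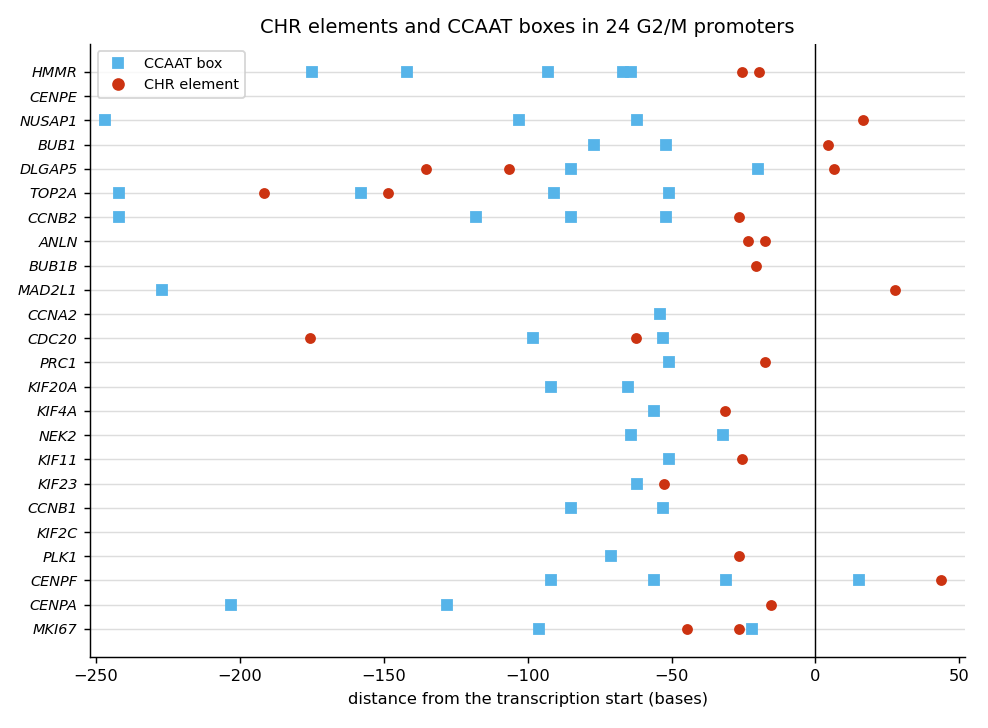
Matches to the CHR (circles) and the CCAAT box (squares) by distance from the transcription start, in bases, for the 24 G2/M genes with 1 promoter in the table; genes are ordered from the lowest Arp8 KO minus WT difference at the top to the highest at the bottom. HMMR at the top and MKI67 at the bottom both have CHR matches just before the start. Of the genes next to HMMR, CENPE has no CHR match, and those of NUSAP1 and BUB1 lie after the start.

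A level below is the log2 of a probe's processed signal minus log2 of the 75th percentile of its array, and a difference is a level minus the WT level of the same probe unless another pair is named. Levels are given in the order WT, Arp5 KO, Arp8 KO and the array labelled Arp8 OE. Levels of different probes cannot be set against each other. The technical error came from 177 probes printed 10 times and well above background on every array: the median SD between spots was 0.056 to 0.061 on the 4 arrays, which gives 0.082 for a difference between 2 arrays read from single spots. This value takes the spots of 2 arrays as independent. Paired spot by spot, the member probes printed 10 times had SDs of 0.018 to 0.049 in Arp8 KO minus WT. For these the value of 0.082 is wide even for single spots. The same value was applied to the means of probes printed 10 times, for which it is too wide still. It covers the spots only, not the spread between cultures, which 1 array per group cannot show.

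The targeted genes were checked before anything else. ACTR5 had levels of -0.13, -4.40, -0.24 and -0.41, a 19.3-fold lower signal in Arp5 KO cells than in WT cells. ACTR8 had 2 probes, with levels of -1.02, -1.11, -1.55 and -1.01 on one and 0.25, 0.01, -0.44 and 0.23 on the other. In Arp8 KO they differed from WT by -0.53 and -0.68, and on the array labelled Arp8 OE by 0.02 and -0.01. That label is therefore not borne out by either probe, and the array is called by its label throughout. Where these probes lie relative to the disrupted exons was not given in the sources used here. The B-cell identity of the line was borne out: all 8 B-lineage marker genes were well above background on every array, with summed levels of 7.33 to 7.84 (log2 of the summed scaled signal). At most 1 of 5 T-cell probes, 2 of 4 myeloid probes, 2 of 4 erythroid probes and 1 of 5 epithelial and fibroblast probes were. The arrays had 75th percentiles of 647.4 to 739.6, 55.8% to 57.4% of probes well above background and no saturated spot.

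Expression of the G2/M genes was lower in Arp8 KO cells than in WT cells for every gene measured. All 41 probes were lower, where 47.3% of the 24578 probes tested were lower, and 40 were lower by more than the technical error, against 39.3% of all. The median difference was -0.44, a level 1.36-fold lower, with quartiles of -0.59 and -0.33, beside a median of 0.03 over all probes. The differences were modest in size: 11 of 41 probes (26.8%) were over 1.5-fold lower, against 11.2% of all, and 2, in PLK4 and HMMR, were over 2-fold lower, a share near the 4.35% of all. No member was over 2-fold higher in Arp8 KO, where 3.37% of all probes were. On a bulk array, fewer cells in G2 and mitosis and less mRNA per cell cannot be told apart.

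Arp5 KO cells showed the same side of WT at a smaller size. Here 38 of 41 probes were lower, where 49.3% of 24285 probes tested were, and 33 were lower by over the technical error, against 35.2% of all. The median was -0.15 (quartiles -0.20 and -0.11), beside 0.00 over all probes, and the range ran from -0.31 to 0.04. No member was over 1.5-fold or 2-fold lower, which 4.69% and 2.01% of all probes were, and none was over 2-fold higher, as 1.69% were. On the array labelled Arp8 OE the members lay on both sides of WT. There 24 of 41 were lower, against 50% of all 24177 probes, with 17 lower and 10 higher by over the technical error, against 40.1% and 40.3% of all. The median was -0.03, from -0.52 to 0.27, with 0 members over 2-fold lower and 0 over 2-fold higher, against 2.15% and 2.96% of all. All 3 comparisons share the WT array, so an error in it would move them together.

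Comparisons that leave WT out gave the following. Arp8 KO was lower than Arp5 KO in 39 of 41 probes, with a median of -0.30, where 46.9% of all probes were lower and their median was 0.02. Against the array labelled Arp8 OE, Arp8 KO was lower in 40 of 41, with a median of -0.39, where 47.9% of all were lower. Over 1.5-fold lower were 4 of the 41 against Arp5 KO, near the background of 7.84%, and 9 against the array labelled Arp8 OE, where the background was 9.44%. Arp5 KO was lower than the array labelled Arp8 OE in 27 of 41, against 49.5% of all, with a median of -0.06. That last median turned to 0.0086 when arrays were scaled to their median.

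Taken gene by gene through the brightest probe, Arp8 KO was the lowest of the 4 arrays for 33 of 35 genes, and Arp5 KO for the other 2, CENPA and MKI67. Counted by probe this is 39 of 41, where 28.7% of the 21783 probes above background on all 4 arrays were lowest on Arp8 KO and 17.8% on Arp5 KO. No member was lowest on WT or on the array labelled Arp8 OE, where 26.3% and 27.3% of all were. WT was highest for 19 genes and the array labelled Arp8 OE for 16. By probe these were 23 and 17 of 41, where 24.1% and 25.6% of all probes were highest on these arrays. In 31 of 35 genes the order ran from Arp8 KO, the lowest, through Arp5 KO to WT. This count adds little to its steps, as Arp8 KO was below Arp5 KO in 33 genes and Arp5 KO below WT in 33. The share of all probes in this order was not computed.

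**Figure D2:**
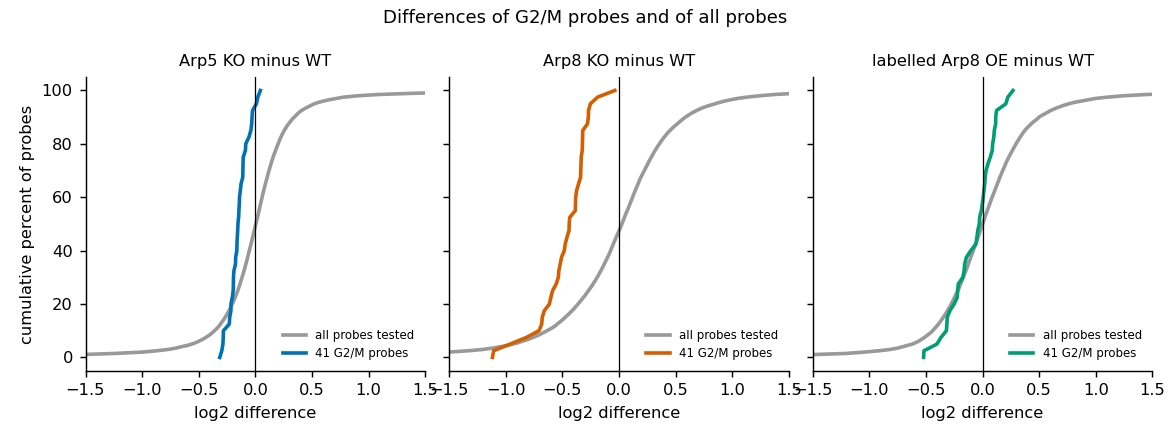
Cumulative percent of probes (vertical axis) by log2 difference from WT (horizontal axis) on 3 arrays, for all probes tested (grey) and the 41 G2/M probes (coloured). In Arp8 KO the whole coloured curve lies below 0 with its median at -0.44, in Arp5 KO it lies just left of 0 with its median at -0.15, and on the array labelled Arp8 OE it runs close to the grey curve below 0 and to its left above 0, with quartiles of -0.22 and 0.07 beside -0.22 and 0.23 over all probes.

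Most member probes were bright, and low signals tend to spread more. The comparison was therefore repeated among the 9826 probes whose mean level was above the 75th percentile. In Arp8 KO all 33 member probes of this kind were lower, with a median of -0.38, where 45.6% of the bright probes were lower and their median was 0.03. In Arp5 KO 31 of 33 were lower, with a median of -0.15, against 46.3% and a median of 0.02. Over 1.5-fold lower in Arp8 KO were 5 of the 33, against 6.48% of the bright probes.

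Cyclins, CDK1 and the phosphatases that switch it on were lower in Arp8 KO in all 6 genes, with a median of -0.41. CCNB1, cyclin B1, had levels of 4.04, 4.0, 3.71 and 4.03. CCNB2, cyclin B2, had levels of 4.88, 4.70, 4.36 and 4.92. For both, Arp8 KO was the array furthest from WT, by -0.32 and -0.52. CDK1, the kinase they activate, had levels of 3.27, 3.13, 2.89 and 3.02. CCNA2, cyclin A2, which acts from S phase until early mitosis, had levels of 1.41, 1.20, 0.97 and 1.01. In these 2 genes the array labelled Arp8 OE also differed from WT, by -0.25 and -0.40. For CCNA2, Arp8 KO minus the array labelled Arp8 OE was only -0.04, with 8 of 10 spots lower. CDC25B, which starts CDK1 activation at the centrosome, had levels of 1.70, 1.51, 1.33 and 1.97. CDC25C, which removes the inhibitory phosphates of CDK1 at mitotic entry, had levels of 0.00, -0.30, -0.82 and 0.12. CDC25C thus had the largest difference of the group in Arp8 KO, 1.76-fold lower, while CDC25B was higher than in WT by 0.27 on the array labelled Arp8 OE, the largest positive difference of any member.

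Mitotic kinases had a median of -0.47 in Arp8 KO over 8 probes of 5 genes. PLK4, which controls centriole duplication, had levels of 0.04, -0.15, -1.07 and -0.48 on its brighter probe. That is 2.17-fold lower in Arp8 KO, the largest difference of any member on the processed signal, and its other probe was 1.63-fold lower. With a normexp background correction the difference was -0.91 and that of HMMR, at -1.02, was larger. The array labelled Arp8 OE also differed from WT by -0.52 on both PLK4 probes. PLK1, the Polo kinase of spindle assembly and mitotic exit, had levels of 4.52, 4.36, 4.25 and 4.74. Its difference in Arp8 KO was small, -0.27, and -0.27 on its other probe too, while the array labelled Arp8 OE was above WT by 0.22 and 0.21. AURKA, the Aurora kinase of spindle poles, had levels of 3.21, 3.06, 2.75 and 3.21. AURKB, the Aurora kinase of the chromosomal passenger complex, had levels of 1.37, 1.26, 0.88 and 1.49. NEK2, a kinase of centrosome separation, had levels of 0.56, 0.48, 0.23 and 0.54. AURKA and AURKB had close differences in Arp8 KO, of -0.46 and -0.48. The NEK2 probes gave -0.34 and -0.61 in Arp8 KO but -0.08 and 0.04 in Arp5 KO, so that no side was settled for NEK2 in Arp5 KO.

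All 4 genes of the spindle checkpoint, which delays anaphase while kinetochores are unattached, were lower in both knockouts. The median was -0.53 in Arp8 KO and -0.17 in Arp5 KO. BUB1, a kinase that recruits checkpoint proteins to kinetochores, had levels of 2.44, 2.28, 1.86 and 2.27. BUB1B, which encodes BubR1, a part of the mitotic checkpoint complex, had levels of 2.04, 1.93, 1.57 and 2.01. MAD2L1, the MAD2 protein that captures CDC20, had levels of 3.16, 2.95, 2.72 and 2.79. For MAD2L1 the array labelled Arp8 OE lay nearer to Arp8 KO than to WT. TTK, the MPS1 kinase at the top of this pathway, had levels of -0.07, -0.25, -0.75 and 0.02. It was 1.60-fold lower in Arp8 KO, the most of the 4.

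The anaphase regulators CDC20 and PTTG1 had a median of -0.26 in Arp5 KO, the furthest below 0 of any role there, and -0.48 in Arp8 KO. CDC20, which activates the anaphase-promoting complex, had levels of 3.39, 3.10, 2.95 and 3.42. PTTG1, securin, which holds separase inactive until anaphase, had levels of 5.76, 5.53, 5.23 and 5.87. Both genes were lowest in Arp8 KO, next in Arp5 KO and highest on the array labelled Arp8 OE, which was above WT by less than the technical error for CDC20 and by 0.12 for PTTG1 (0.0026 with quantile normalization).

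Motor kinesins had a median of -0.35 in Arp8 KO over 6 probes of 5 genes, and 4 of the 5 genes lay between -0.36 and -0.32 there by their brightest probe. KIF11, the motor that pushes spindle poles apart, had levels of 1.62, 1.63, 1.29 and 1.65 on its brightest probe and of 1.1, 0.88, 0.14 and 0.78 on the other. The differences in Arp8 KO were -0.34 and -0.96, and this was the only member whose probes disagreed by over 0.5. KIF2C, which depolymerizes microtubules at kinetochores, had levels of 3.98, 4.01, 3.66 and 4.09. KIF4A, a chromosome-bound motor, had levels of 2.01, 1.87, 1.65 and 2.03. In both, Arp8 KO was the lowest array, by -0.32 and -0.36 from WT. KIF20A and KIF23, motors of the central spindle, had levels of 1.28, 1.16, 0.89 and 1.17 and of 2.65, 2.49, 2.31 and 2.42. KIF20A was the fifth kinesin, at -0.38 in Arp8 KO.

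Genes of the centromere and kinetochore had a median of -0.28 in Arp8 KO, with probes from -0.68 to -0.19. CENPE, a kinetochore motor, had levels of 2.95, 2.82, 2.28 and 2.91, and was 1.60-fold lower in Arp8 KO. CENPF, a large kinetochore protein of late G2, had levels of 5.39, 5.36, 5.14 and 5.49 on its brighter probe, where Arp8 KO differed by -0.25, and its dimmer probe gave -0.66. BIRC5, survivin of the chromosomal passenger complex, had levels of 5.64, 5.54, 5.37 and 5.71. CENPA, the histone H3 variant that marks centromeres, went against the common order. Its levels were 0.47, 0.16, 0.29 and 0.48, so that Arp8 KO was above Arp5 KO by 0.13. On the processed signal CENPA had the largest Arp5 KO difference of all members, -0.31, which was -0.22 with normexp.

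Spindle assembly factors had a median of -0.58 in Arp8 KO, the furthest below 0 of any role there. HMMR, a microtubule-binding protein of spindle poles, had levels of 4.42, 4.23, 3.31 and 4.20. Arp8 KO was 2.15-fold below WT, and differed from the array labelled Arp8 OE by -0.89, while Arp5 KO and the latter differed from WT by -0.19 and -0.22. DLGAP5, which bundles kinetochore fibres, had levels of 2.95, 2.73, 2.40 and 2.79. NUSAP1, which stabilizes spindle microtubules, had levels of 1.48, 1.32, 0.88 and 1.33. TPX2, the activator of Aurora A on the spindle, had levels of 3.47, 3.44, 3.15 and 3.48. TPX2 differed from WT by more than the technical error in Arp8 KO alone, by -0.32.

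Among the cytokinesis genes, ECT2, which acts at the cleavage furrow, had levels of 3.07, 2.98, 2.73 and 3.02 on its brightest probe. PRC1, which crosslinks the central spindle, had levels of 3.67, 3.61, 3.29 and 3.76. Both genes stood apart from WT mainly in Arp8 KO, by -0.34 and -0.38, with differences from -0.09 to 0.08 on the other arrays. ANLN, anillin, a scaffold of the contractile ring, had levels of -0.89, -1.17, -1.40 and -1.20. Here Arp5 KO and the array labelled Arp8 OE were both below WT, with differences of -0.28 and -0.31. The single ANLN spot had 1 bright adjacent spot on WT. Of the genes of chromosome structure, TOP2A, the topoisomerase that untangles sister chromatids, had levels of 2.58, 2.41, 2.04 and 2.29, lowest in Arp8 KO. MKI67, which encodes the Ki-67 protein of the chromosome surface, had levels of 0.70, 0.56, 0.66 and 0.64. Its difference of -0.04 in Arp8 KO was the only one of the 35 genes within the technical error on the processed signal (with normexp that of CENPA was too, at -0.08), and Arp5 KO was the lowest array.

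**Figure D3:**
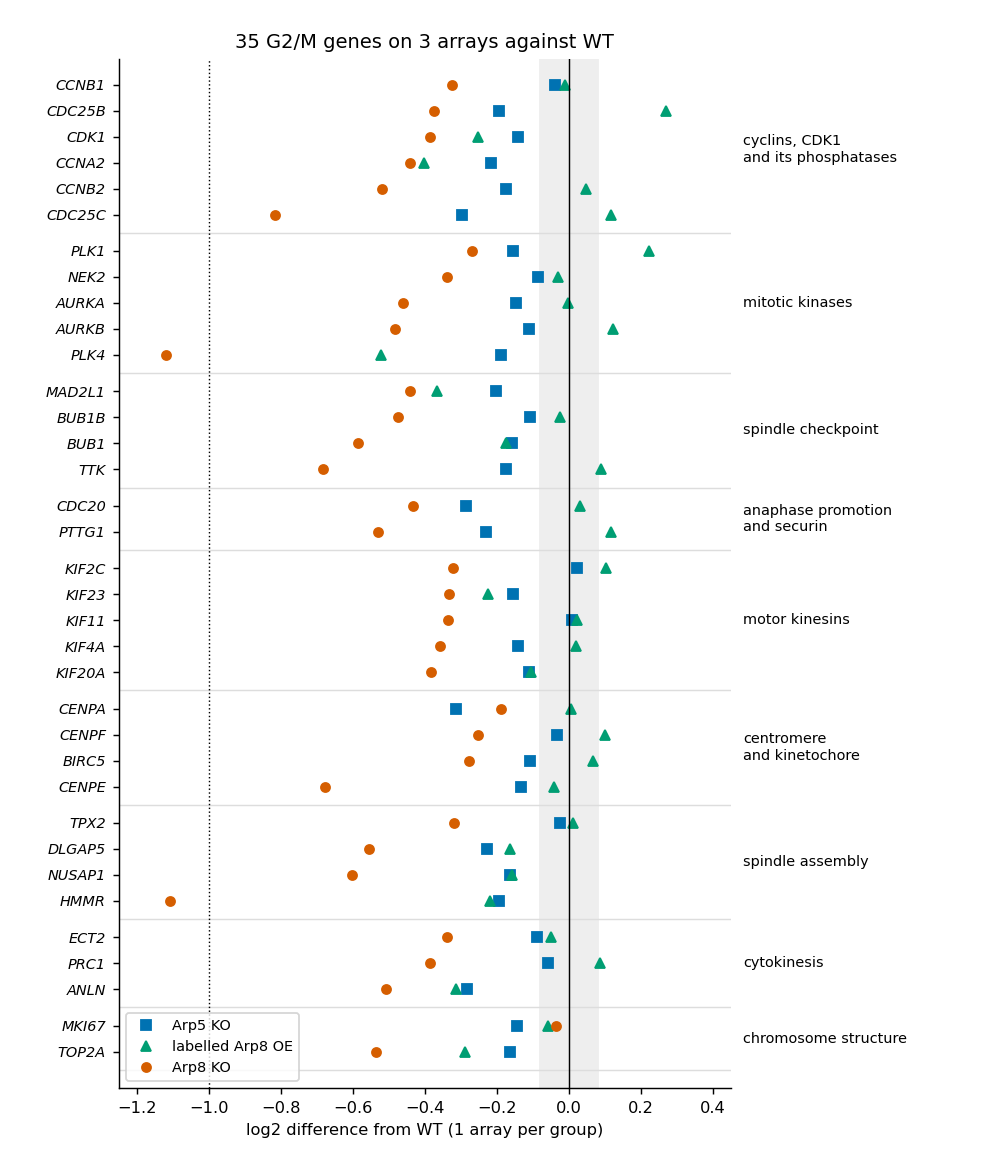
Log2 difference from WT (horizontal axis, 1 array per group) of the 35 G2/M genes, by the brightest probe of each, ordered by role. Circles are Arp8 KO, squares Arp5 KO and triangles the array labelled Arp8 OE; the grey band is the technical error of 0.082 on each side of 0 and the dotted line is 2-fold lower. All 35 circles lie left of 0, from -1.12 for PLK4 to -0.04 for MKI67, and the triangles spread from -0.52 to 0.27.

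Probes for 5 members were printed 10 times, so that the reading error of their differences could be seen directly. In Arp8 KO minus WT, CCNA2 gave -0.44 ± 0.049, CDK1 -0.39 ± 0.040, KIF20A -0.38 ± 0.042 and BIRC5 -0.28 ± 0.018 (SD between spots, n = 10 spots). CENPE gave -0.70 ± 0.019 over the 6 spots usable on both arrays. Every usable spot was lower for all 5 genes. In Arp5 KO minus WT the means were -0.22 for CCNA2, -0.14 for CDK1, -0.11 for KIF20A, -0.15 for CENPE and -0.11 for BIRC5, and every usable spot was again lower. These small differences are thus larger than the scatter of spots within the arrays, which says nothing of the scatter between cultures. On the array labelled Arp8 OE the genes parted: CCNA2 was at -0.40 and CDK1 at -0.25 with 10 of 10 spots lower, while BIRC5 was at 0.07 with 0 of 10 spots lower. With quantile normalization BIRC5 turned to -0.06 there.

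**Figure D4:**
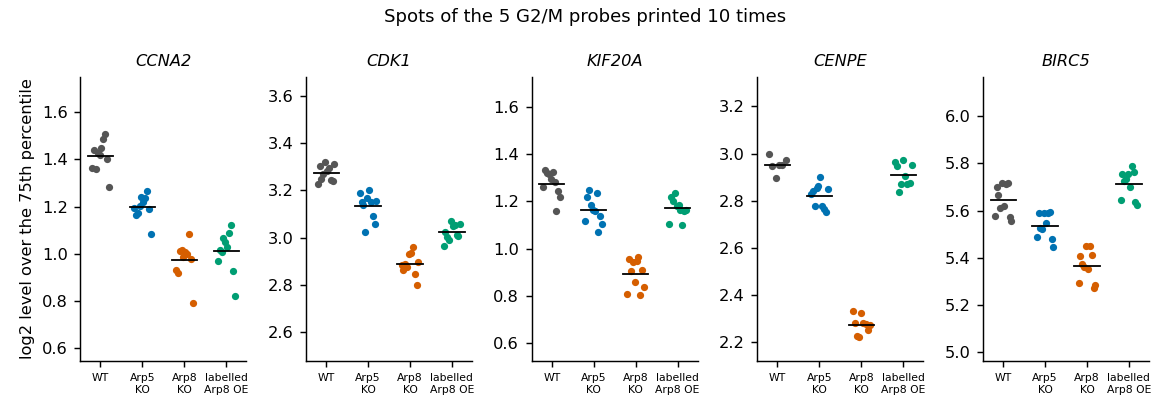
Level (log2 over the array's 75th percentile) of each usable spot for the 5 G2/M probes printed 10 times, on 4 arrays; bars are means over spots of 1 array, not over cultures. For CDK1, KIF20A, CENPE and BIRC5 the Arp8 KO spots are the lowest group, and for CCNA2 they overlap with the spots of the array labelled Arp8 OE.

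Neighbouring spots were also looked at, since some spots were adjacent to one whose signal on a single array exceeded that on each of the rest by more than 2-fold. This held for at least 1 spot of 14 member probes, 9 of them on WT, 6 on the array labelled Arp8 OE, 4 on Arp5 KO and 3 on Arp8 KO. On WT it held for the single spots of ANLN, BUB1, KIF23, NUSAP1 and the dimmer CENPF probe, each lower on the other arrays. Leaving out 10 probes with this at 50% or more of their spots, the median was -0.38 in Arp8 KO, with 31 of 31 probes lower, and -0.14 in Arp5 KO, with 28 of 31 lower.

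Genes of mitosis that were not on the list of 36 were read in the same way. Of 38 probes for 29 other spindle and cytokinesis genes, 36 were lower in Arp8 KO, where 47.3% of all probes were, with a median of -0.45, and 3 were over 2-fold lower, against the 4.35% of all probes. The gene with the largest difference was DEPDC1, with levels of 1.22, 0.85, -0.07 and 0.95 on its brighter probe and differences of -1.29 and -1.01 in Arp8 KO on its 2 probes. Other kinetochore genes were lower in Arp8 KO in 49 of 52 probes, with a median of -0.43. Over 2-fold lower were 3 of the 52, a share near the 4.35% of all probes. These were single probes of SGO1, the guardian of centromeric cohesion (levels -0.51, -1.1, -2.01 and -2.01), of CENPI, an inner kinetochore protein (-2.32, -2.78, -3.47 and -3.27), and of KNL1, an outer kinetochore scaffold (-3.15, -3.82, -4.25 and -3.72). On the array labelled Arp8 OE, 48 of the 52 probes of this list were lower, against 50% of all probes. Their median was -0.26, beside -0.03 for the listed G2/M probes. That difference between gene groups was not tested.

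Cohesin and condensin genes, which hold sister chromatids together and compact them, were lower in 19 of 28 probes in Arp8 KO, against 47.3% of all probes, with a median of -0.22. SMC2, a condensin subunit, had levels of 0.56, 0.46, -1.0 and -1.03, so that Arp8 KO and the array labelled Arp8 OE both stood over 2-fold below WT and Arp5 KO. Subunits and regulators of the anaphase-promoting complex, which is needed in G1 as well, stood at the background as a list. In Arp8 KO 12 of 24 probes were lower, with a median of 0.00 and a range of -0.46 to 0.43. No probe of the list passed 2-fold in any comparison with WT. Genes of G1/S and DNA replication were lower in Arp8 KO in 58 of 66 probes, with a median of -0.30. In Arp5 KO 26 of the 66 were lower, against 49.3% of all, with a median of 0.03, beside 38 of 41 and -0.15 for the G2/M probes. Over 2-fold lower in Arp8 KO were 3 of the 66 probes, near the 4.35% of all, and they are given as values. MCM2, a subunit of the replicative helicase, had levels of 4.49, 2.87, 3.0 and 4.59, low in both knockouts. RFC3, of the clamp loader, had differences of -1.20 and -0.20 in Arp8 KO on its 2 probes. POLE2, of DNA polymerase epsilon, had levels of 0.46, 0.48, -0.67 and 0.31.

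**Figure D5:**
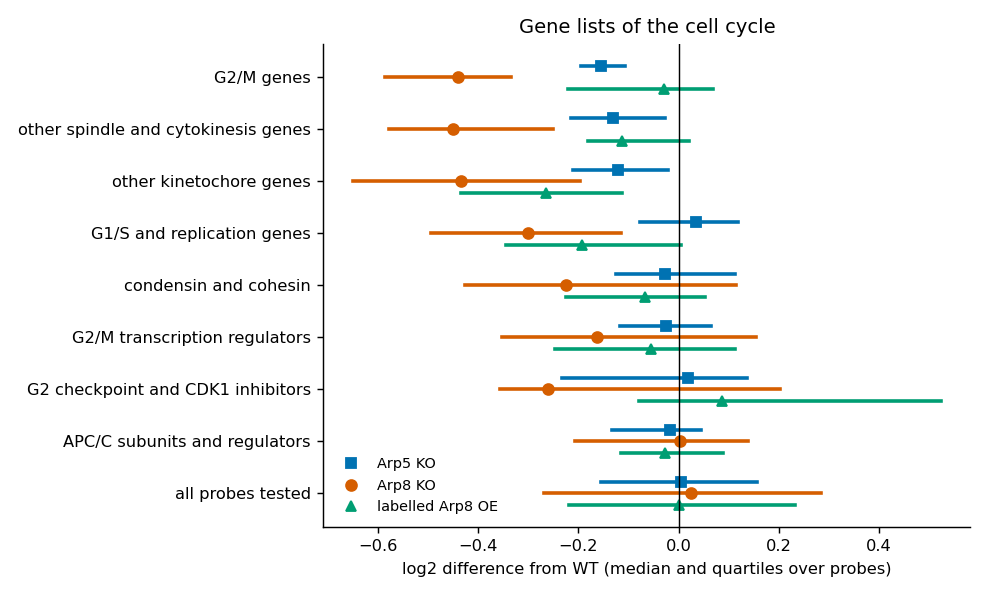
Median (symbols) and quartiles (bars) over probes of the log2 difference from WT for the G2/M genes, 7 other gene lists of the cell cycle and all probes tested, on 3 arrays. In Arp8 KO the 3 mitotic lists at the top have medians between -0.43 and -0.45 and the G1/S genes -0.30. Subunits and regulators of the anaphase-promoting complex lie at 0.00 and all probes at 0.03.

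The 22 probes for 14 transcription regulators of the G2/M genes had medians of -0.02 in Arp5 KO cells, -0.16 in Arp8 KO cells and -0.06 on the array labelled Arp8 OE. The list lay on both sides of WT in Arp8 KO, with 15 of 22 probes lower, against 47.3% of all. By over the technical error, 13 were lower and 7 higher, against 39.3% and 44.1% of all. The activator FOXM1 had levels of 1.53, 1.42, 1.17 and 1.65. MYBL2, the B-Myb activator, had levels of 3.87, 3.66, 3.71 and 3.73. For LIN9, of the MuvB core, the brighter of 2 probes had levels of 1.70, 1.49, 0.87 and 1.64. FOXM1 and LIN9 were thus lowest in Arp8 KO, and MYBL2 was lower than in WT on the 3 other arrays by similar amounts. These 3 were named for their role after their values were seen, and the other LIN9 probe is not given. Differences of the list in Arp8 KO reached up to 0.38, and no probe above WT there is given by value. RBL1, which encodes the pocket protein p107 of DREAM, was lower by over 2-fold on all 3 arrays on 1 probe, with levels of -2.04, -4.09, -4.35 and -4.17. That probe had 1 bright adjacent spot on WT, and the other RBL1 probe gave -0.12, -0.33 and -0.55.

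Inhibitors of CDK1 and the G2 checkpoint gave 16 probes above background for 11 of 13 genes, with medians of 0.02, -0.26 and 0.09. The Arp8 KO median was -0.14 with normexp and -0.17 with the mean over a gene's probes or with no filter and floor, and the median on the array labelled Arp8 OE was 0.42 without probes beside bright spots. CDKN1A, the CDK inhibitor p21, had levels of 2.19, 2.41, 4.14 and 2.92 on a probe printed 10 times and of -0.78, -0.79, 0.71 and -0.26 on a single spot. It was 3.86-fold higher in Arp8 KO than in WT on the former, against 3.37% of all probes over 2-fold higher. In Arp5 KO its differences were 0.22 and -0.01. GADD45G, a stress-induced inhibitor of CDK1, differed from WT by -1.49 in Arp5 KO cells and by -1.52 in Arp8 KO cells. On the array labelled Arp8 OE the lowest difference of any probe of this list was -0.81. CCNG2, an unconventional cyclin of arrested cells, was higher on the array labelled Arp8 OE by 1.11, 0.62 and 0.55 on its 3 probes. The part of these differences in those of the G2/M genes was not tested.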

How the data were processed

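RNA of 4 Nalm-6 cultures was measured on 4 single-colour Agilent arrays, 1 per genotype in the labels. The deposited scanner files hold intensity values, written by Agilent Feature Extraction (version 10.10.1.1 in the headers). Their processed signal has the background subtracted by that software, with no step that makes arrays comparable. The deposited series matrix holds the same intensity times a constant for each array, and served as an alternative. Flags for background, saturation and outlier spots came from the scanner files.

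Values were log2 processed signal minus log2 of the 75th percentile over non-control spots, averaged over the spots of a probe after removal of outlier spots. Above background meant flagged as such at 50% or more of the spots. A probe entered a comparison when it was above background on either array. On an array where it was not, a level under the lowest level above background was raised to that level. Probes were named through RefSeq accessions in the table of GRCh38.p14, which gave a symbol to 27210 of 41000 probes (66.4%); the headers name hg19, and no array coordinates are given. Promoters came from the RefSeq table of the same assembly.

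The members and lists were chosen with earlier results of these data known. All members are named, and from other lists up to 3 genes a direction past 2-fold on a probe above background on both arrays; 1 gene that met this rule is not reported here. Lists were described by medians and counts beside all probes tested. No test could be run on single arrays, and their small number bounds the precision. The alternatives changed the scaling (median, quantile, cyclic loess), the background correction (normexp with an offset of 50 on the median spot signal), the source (series matrix), the filter and floor, the handling of a gene's probes, the probes beside bright spots and the threshold (1.5-fold). Python 3.11.15, numpy 2.4.6, pandas 2.3.3, R 4.3.3 and limma 3.58.1 were used, and the scripts were tested on simulated data.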

Additional observations from a re-analysis of the deposited data

How the results depend on the processing

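Of 1275 values recomputed under the alternatives, 1248 moved by less than the technical error or kept their count within 1.5 times, and 27 moved further. Among the genes, 2 values past the technical error changed sign, both on the array labelled Arp8 OE minus WT: CENPF from 0.10 to -0.11 with the mean over its probes, and TTK from 0.09 to -0.02 with normexp. The median of the G2/M probes kept its side of 0 under all 9 alternatives tried for it in Arp8 KO minus WT (-0.46 to -0.38), Arp5 KO minus WT (-0.16 to -0.12), the array labelled Arp8 OE minus WT (-0.06 to -0.0018), Arp8 KO minus Arp5 KO (-0.32 to -0.28) and Arp8 KO minus the array labelled Arp8 OE (-0.40 to -0.34), but not in Arp5 KO minus that array (-0.08 to 0.0086). The count of G2/M probes over 2-fold lower in Arp8 KO, 2 on the processed signal, was 11 at a 1.5-fold threshold, 1 with the mean over the probes of a gene and 1 with normexp, where PLK4 was the gene lost. In both, PLK4 was at -0.91. Without a filter and floor, the median over all probes, dim ones included, was -0.08 in Arp8 KO minus WT with 60.4% lower, -0.06 in Arp5 KO minus WT with 61.7% lower, and 0.11 on the array labelled Arp8 OE minus WT with 40.9% lower. No paired analysis was possible because each group has 1 array.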
